A study of Mus musculus with 12 samples.

Results

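Reactive gliosis markers were followed here as 8 genes, Gfap, Vim, Nes, Serpina3n, Lcn2, Cd44, S1pr3 and Steap4, out of 54532 genes in the tables of the whole series. They were chosen by symbol, and all 8 had enough counts to enter the test. The data were retinal RNA-seq counts from 12 libraries of wild type C57BL/6 mice aged 13 weeks, with 3 libraries in each of 4 groups. The study asked how the retina changes in experimental autoimmune encephalomyelitis with optic neuritis, an immune attack on the myelin of the optic nerve, and whether needling at an acupoint alters it. SHAM was the sham control. MOG mice were immunized with the peptide MOG35-55 of myelin oligodendrocyte glycoprotein and were not needled. Per the methods, the peptide was given in complete Freund's adjuvant, and pertussis toxin was given besides. GB20 and GV16 mice received that immunization and were then needled repeatedly under anaesthesia at acupoint GB20 or at the control acupoint GV16. The mice were female per the methods. What the sham mice received, and whether mice that were not needled were anaesthetized, is not stated in the sources. So the peptide, the adjuvant, the pertussis toxin and the handling cannot be told apart in a comparison with SHAM. Needling and the anaesthesia given with it cannot be told apart in a comparison of needled mice with MOG. Several mice per group were used in each of the repeats of the experiment, and whether a library pools their retinas is not stated.

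Gliosis is the response of glial cells to injury or inflammation. In the retina it involves Müller glia, which span the whole neural tissue, and astrocytes, which line the nerve fibre layer beside the axons of retinal ganglion cells. Reactive glia build more intermediate filament, of which Gfap, Vim and Nes are subunits, secrete acute-phase proteins such as the protease inhibitor Serpina3n and the iron-siderophore carrier Lcn2, and change surface receptors such as the hyaluronan receptor Cd44 and the sphingosine-1-phosphate receptor S1pr3. Steap4 is a membrane metalloreductase of iron and copper. Cytokines that signal through gp130 and the transcription factor STAT3 are known to raise several of these genes, Gfap among them.

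The start regions of the 3 genes that rose in MOG vs. SHAM are shown because these genes are the ones that the results turn on. Each run covers 250 bases before to 50 bases after the RefSeq start on GRCm38.p6, 5′ to 3′ on the strand of the gene, and capitals mark matches to the motifs named next. The windows lie at chr11:102897151-102897450 (minus strand) for Gfap, chr12:104406458-104406757 (plus strand) for Serpina3n and chr2:102901616-102901915 (minus strand) for Cd44.
Gfap: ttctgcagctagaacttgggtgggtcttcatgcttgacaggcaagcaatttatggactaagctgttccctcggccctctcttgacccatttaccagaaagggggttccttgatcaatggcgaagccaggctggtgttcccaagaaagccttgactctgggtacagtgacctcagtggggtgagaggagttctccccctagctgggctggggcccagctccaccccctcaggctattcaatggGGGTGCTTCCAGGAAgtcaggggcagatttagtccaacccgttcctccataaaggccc
Serpina3n: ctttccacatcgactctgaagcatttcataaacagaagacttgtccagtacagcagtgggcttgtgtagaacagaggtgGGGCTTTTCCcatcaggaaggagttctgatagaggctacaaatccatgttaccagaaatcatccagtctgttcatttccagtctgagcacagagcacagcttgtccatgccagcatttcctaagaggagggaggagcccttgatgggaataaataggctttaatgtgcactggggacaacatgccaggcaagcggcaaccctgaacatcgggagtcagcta
Cd44: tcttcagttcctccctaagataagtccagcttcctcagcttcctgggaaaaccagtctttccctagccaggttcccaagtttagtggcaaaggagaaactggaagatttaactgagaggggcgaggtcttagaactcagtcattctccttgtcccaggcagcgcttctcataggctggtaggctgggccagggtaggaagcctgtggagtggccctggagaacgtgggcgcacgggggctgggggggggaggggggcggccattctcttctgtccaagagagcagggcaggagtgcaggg
RefSeq windows were found for all 8 genes. On both strands 3 kinds of motif were searched, TTCNNNGAA for STAT factors, TGANTCA for AP-1 and, for NF-kB, GGG and TTCC with any 3 bases between them. Gfap held the STAT match TTCCAGGAA beginning 2 bases before the start, and it overlapped the NF-kB match GGGTGCTTCC that began 8 bases before the start, so the capitals form a single run. Serpina3n held the NF-kB match GGGCTTTTCC beginning 171 bases before the start, and Cd44 held none of the motifs. Of the other 5 genes, Vim held an NF-kB match, Steap4 held a STAT match and an NF-kB match, and Nes, Lcn2 and S1pr3 held none. AP-1 matches were found in 0 of the 8 windows. Among all 32851 RefSeq windows, 8.3% held the STAT motif, 5.56% the NF-kB motif and 7.81% the AP-1 motif. A match describes letters in the window only.

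Each library held between 15860278 and 19194280 counts on genes. Of the genes in the tables, 18299 passed the filter on low counts and were tested. Levels are given as CPM, the count relative to the TMM-scaled library size, and comparisons between genes are given as the authors' FPKM, which is per exon length. Rod photoreceptor markers summed to between 53560 and 60000 CPM in every library, so the libraries carried the defining marker genes of retina. Retinal ganglion cell markers summed to between 870.7 and 987.6 CPM in the SHAM libraries and to between 483.8 and 584.7 CPM in the MOG libraries. Of these markers, 12 of 12 passed the test as lower in MOG, beside 245 of the 18299 genes tested that were called in either direction. The calls of 8 of them also held without any single library (Nefm, Slc17a6, Rbpms and Pou4f3 were lost without some). In whole retina, fewer cells of a type and less RNA per cell cannot be told apart.

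In the SHAM retinas, Vim was the most abundant of the 8 genes at 20.4 ± 1.25 FPKM (SD, n = 3). S1pr3 followed at 5.70 FPKM and Gfap at 5.43 FPKM, with overlapping libraries. Serpina3n stood at 2.55 FPKM, Lcn2 at 1.39 FPKM and Cd44 at 1.16 FPKM, the libraries of Lcn2 and Cd44 overlapping, and Nes at 0.882 FPKM and Steap4 at 0.243 FPKM were the lowest. In the MOG retinas the order of levels was Vim at 22.3, Gfap at 12.9, Serpina3n at 10.8, S1pr3 at 7.19, Lcn2 at 2.04, Cd44 at 1.99, Nes at 1.03 and Steap4 at 0.312 FPKM. Gfap and Serpina3n overlapped there, as did Lcn2 and Cd44, while Serpina3n lay above S1pr3 in every MOG library. In GB20 the order was that of MOG, from Vim at 24.9 FPKM to Steap4 at 0.321 FPKM, and Gfap again overlapped Serpina3n. In GV16 the order was also that of MOG, with Gfap at 9.72, Serpina3n at 7.66 and S1pr3 at 5.61 FPKM each overlapping its neighbour.

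**Figure D1:**
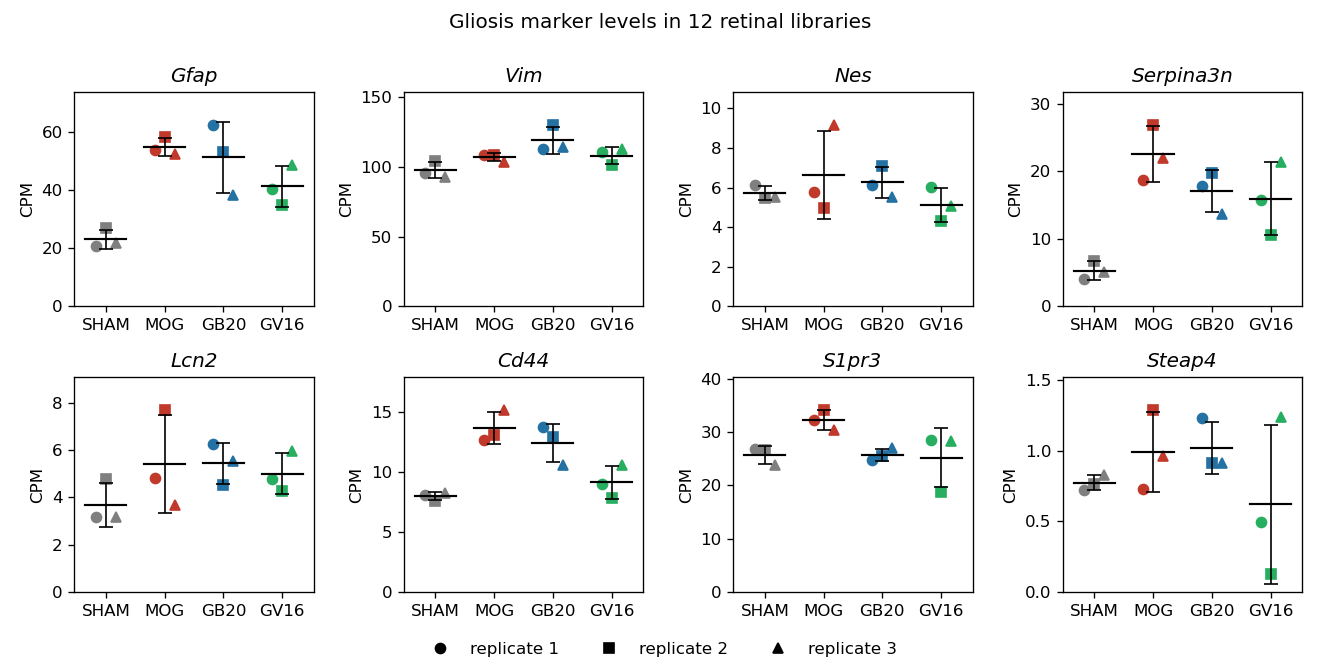
Level of each of the 8 genes in the 12 libraries, in CPM on a linear axis from 0, with 1 point per library, the marker shape giving the replicate number, and a line and bars for the mean ± SD of 3 libraries. Gfap, Serpina3n, Cd44 and S1pr3 lie higher in every MOG library than in any SHAM library, and the GV16 replicate 2 point is the lowest of its group in all 8 panels.

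The comparison of MOG with SHAM asked which markers changed with the disease. Gfap, Serpina3n and Cd44 rose, by 2.37-fold, 4.23-fold and 1.71-fold. The other 5 genes had fold changes above 1 that did not pass the test. So 3 of 8 markers were called higher (edgeR quasi-likelihood test, Benjamini-Hochberg adjusted p under 0.05 over all genes tested) and 0 lower, where 0.568% of all genes tested were called higher. The median log2 fold change over the 8 genes was 0.44, beside -0.002 over all genes.

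Gfap, the main filament protein of reactive astrocytes and Müller glia (ENSMUSG00000020932, protein-coding, chr11:102887336-102900912, minus strand, GRCm38), measured 20.6, 26.8 and 21.9 CPM in the SHAM libraries and 53.9, 58.3 and 52.4 CPM in the MOG libraries. The lowest MOG library was well above the highest SHAM library, and the MOG libraries lay close together. Its log2 fold change of 1.25 ± 0.17 (SE) had an adjusted p of 0.00287. Vim, a filament protein that Müller glia hold also without injury (chr2:13573927-13582826, plus strand), averaged 97.5 ± 5.92 CPM in SHAM and 107 ± 2.78 CPM in MOG (SD, n = 3). Its log2 fold change was 0.13, with a 95% interval from -0.02 to 0.28 and an adjusted p of 0.474. Nes, a filament protein of neural progenitors that some reactive glia make again (chr3:87971078-87980451, plus strand), measured between 5.47 and 6.11 CPM in SHAM and 5.77, 4.98 and 9.19 CPM in MOG. Only MOG replicate 3 was high, and the log2 fold change of 0.22 became -0.08 without it.

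Serpina3n, a secreted serine protease inhibitor (ENSMUSG00000021091, protein-coding, chr12:104406729-104414329, plus strand), measured 4.06, 6.76 and 5.11 CPM in SHAM and 18.7, 26.9 and 21.9 CPM in MOG. It showed the largest fold change of the 8 genes in this comparison, and the groups did not overlap. The log2 fold change was 2.08 ± 0.27 (SE), with an adjusted p of 0.00287. Serpina3n belongs to a cluster of similar genes, and how reads with several alignments were treated is not given, so its value is uncertain where reads fit a relative. Over the 12 libraries Serpina3n held 3069 counts and Serpina3g, the relative with the next highest count, held 87. The other 9 genes of the cluster held 10 or fewer each, and Serpina3j and Serpina3k held 0. Lcn2, which carries iron-loaded siderophores and is secreted by reactive astrocytes (chr2:32384633-32388252, minus strand), measured 3.15, 4.76 and 3.16 CPM in SHAM and 4.81, 7.68 and 3.66 CPM in MOG. The groups overlapped, MOG replicate 3 lying below SHAM replicate 2, and the log2 fold change of 0.54 ± 0.24 (SE) had an adjusted p of 0.336.

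Cd44, a cell surface receptor for hyaluronan (ENSMUSG00000005087, protein-coding, chr2:102811141-102901665, minus strand), measured 8.05, 7.59 and 8.27 CPM in SHAM and 12.6, 13.0 and 15.1 CPM in MOG. The SHAM libraries were within a narrow range, and every MOG library lay above them. The log2 fold change was 0.77 ± 0.14 (SE), with an adjusted p of 0.00289. S1pr3, a G protein-coupled receptor for sphingosine-1-phosphate (chr13:51408639-51422797, plus strand), measured 26.8, 26.6 and 23.7 CPM in SHAM and 32.3, 34.2 and 30.5 CPM in MOG. Its groups did not overlap either, which 4 of 8 markers showed in the higher direction beside 7.87% of all genes tested, but the log2 fold change of 0.33 ± 0.12 (SE) had an adjusted p of 0.217. The exons of S1pr3 share 1.01% of their bases with Gm32834 on the other strand. Steap4 (chr5:7960457-7982213, plus strand) was covered by few counts, between 12 and 15 per SHAM library and between 13 and 21 per MOG library, so that only a large change could have been seen. Its log2 fold change was 0.35 with a 95% interval from -0.58 to 1.27.

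The calls of Gfap, Serpina3n and Cd44 in MOG vs. SHAM held in every alternative fit run and without any single library. Log2 fold changes rose with exon length over 14372 genes in this comparison (Spearman's r 0.259). With exon length offsets, those of Gfap, Serpina3n and Cd44 were 1.26, 2.12 and 0.75. Over the fits that left out 1 library, the log2 fold change of Gfap ran from 1.17 to 1.37, that of Serpina3n from 1.92 to 2.30 and that of Cd44 from 0.69 to 0.82. DESeq2 called 3 of the 8 genes in this comparison, both on all 12 libraries and on the 6 of the pair.

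**Figure D2:**
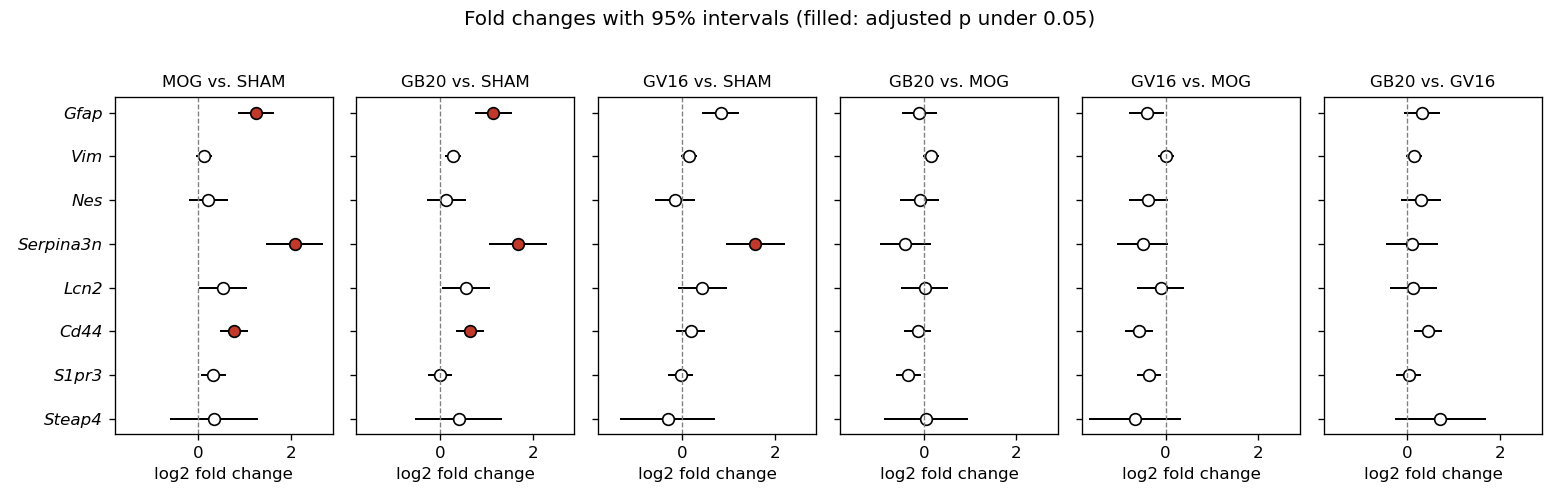
Log2 fold change (horizontal axis) of the 8 genes in the 6 comparisons, with 1 panel per comparison, points for the edgeR estimate, lines for its 95% interval and filled points for an adjusted p under 0.05. Gfap, Serpina3n and Cd44 are filled in MOG vs. SHAM and GB20 vs. SHAM, Serpina3n alone is filled in GV16 vs. SHAM, and no point is filled in the 3 other panels.

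The comparisons of the needled groups with SHAM asked which markers stood apart from sham tissue after immunization and needling. All comparisons with SHAM share the same 3 SHAM libraries. In GB20 vs. SHAM, 3 of 8 markers were called higher, beside 0.164% of all genes. Gfap measured 62.5, 53.0 and 38.2 CPM in the GB20 libraries, all above the SHAM libraries and with replicate 3 the lowest. Against SHAM the difference was 1.15 on the log2 scale (SE 0.17, adjusted p 0.0134). Serpina3n measured 17.8, 19.7 and 13.6 CPM and differed from SHAM by 1.68 on the log2 scale (SE 0.28, adjusted p 0.0347). Cd44 measured 13.7, 12.9 and 10.6 CPM and differed by 0.64 on that scale (SE 0.14, adjusted p 0.0421). GB20 replicate 3 was thus the lowest of its group for each of these 3 genes. Vim measured 112, 130 and 114 CPM in GB20, above every SHAM library, with a log2 fold change of 0.29 ± 0.07 (SE) and an adjusted p of 0.0969. It was called in 5 of the 11 alternative fits, DESeq2 on all 12 libraries among them. Over the alternatives its adjusted p ran from 0.0152 to 0.282. Vim was also called without SHAM replicate 2, at a log2 fold change of 0.34. Steap4 did not overlap either, at 1.24, 0.912 and 0.914 CPM in GB20 and at most 0.832 CPM in SHAM, and its log2 fold change of 0.40 had an adjusted p of 0.884. The 5 markers whose groups did not overlap, all higher, compare with 5.66% of all genes.

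The calls in GB20 vs. SHAM depended on single libraries. Gfap was not called when SHAM replicate 1, SHAM replicate 3 or GB20 replicate 2 was left out, where its log2 fold change was 1.08, 1.11 and 1.13. Serpina3n was not called in 6 of the 12 fits that left out 1 library (SHAM replicates 1, 2 and 3, MOG replicate 3, GB20 replicates 1 and 2), and its log2 fold change ran from 1.52 to 1.89. Cd44 was not called in 7 of 12 (SHAM replicates 1, 2 and 3, MOG replicates 2 and 3, GB20 replicates 1 and 2), and its log2 fold change ran from 0.56 to 0.73.

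In GV16 vs. SHAM, 1 of 8 markers, Serpina3n, was called higher, beside 0.224% of all genes. Serpina3n measured 15.7, 10.6 and 21.4 CPM in the GV16 libraries, which lay above SHAM and spread widely. The difference from SHAM was 1.58 on the log2 scale (SE 0.28, adjusted p 0.0286). Leaving out any SHAM library, MOG replicate 3, GB20 replicate 1 or GV16 replicate 1 ended the call, with log2 fold changes from 1.31 to 1.80 over all such fits. Gfap measured 40.2, 34.8 and 48.7 CPM, also above every SHAM library, and its log2 fold change of 0.84 ± 0.17 (SE) had an adjusted p of 0.0577. Gfap was called in 4 of the 11 alternative fits (DESeq2 on all 12 libraries and on the 6 of the pair, edgeR on those 6, and edgeR with no filter), with adjusted p from 2.16e-12 to 0.145 over the alternatives, and also without GB20 replicate 1 or GB20 replicate 3. Groups did not overlap for these 2 genes, beside 6.86% of all genes that were higher in that way. Cd44 measured 8.94, 7.84 and 10.6 CPM in GV16, GV16 replicate 2 lying among the SHAM libraries, and its log2 fold change was 0.20 with a 95% interval from -0.10 to 0.49.

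**Figure D3:**
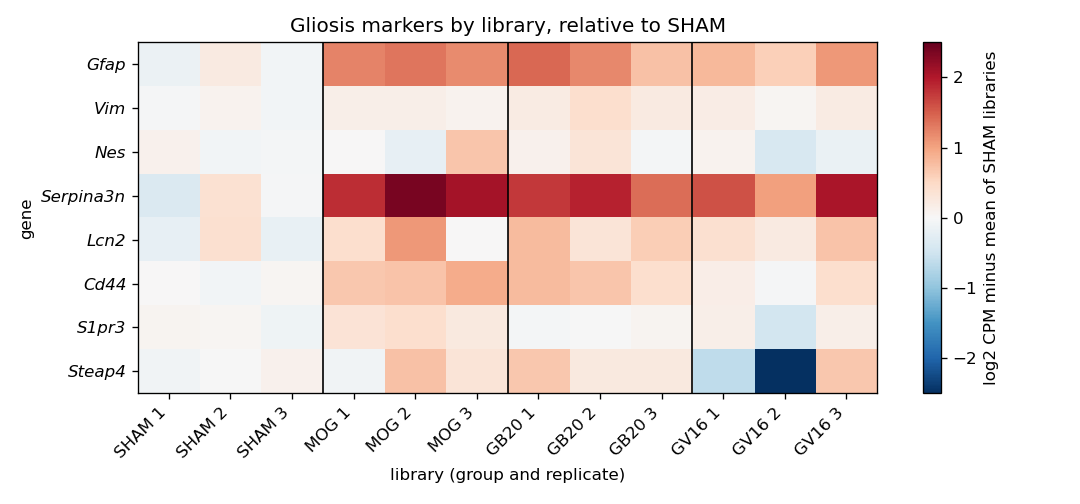
Log2 CPM of each gene (rows) in each library (columns) minus the mean of the 3 SHAM libraries, with red for higher and blue for lower, and black lines between groups. Serpina3n runs from 1.85 to 2.37 in MOG and from 1.03 to 2.04 in GV16, and the darkest blue field is Steap4 in GV16 replicate 2 at -2.59.

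The comparisons of the needled groups with MOG asked how the markers differed in immunized mice after needling under anaesthesia. Both comparisons share the same 3 MOG libraries, which also enter MOG vs. SHAM. In GB20 vs. MOG, 0 of 8 markers were called by edgeR, with 2 at an unadjusted p under 0.05, and 0 by DESeq2 and by limma-voom, beside 0.24% of all genes called by edgeR. The Gfap levels overlapped, with a log2 fold change of -0.10 and a 95% interval from -0.45 to 0.26. For Serpina3n the difference was -0.40 with an interval from -0.93 to 0.13, and for Cd44 it was -0.13 with an interval from -0.40 to 0.14. These intervals do not exclude a fall of Serpina3n by 0.93 on the log2 scale. S1pr3 measured 24.7, 25.5 and 27.04 CPM in GB20, below every MOG library and within the range of SHAM or just above it, and its log2 fold change of -0.33 ± 0.12 (SE) had an adjusted p of 0.463. Vim was higher in every GB20 library than in any MOG library, with a log2 fold change of 0.16 ± 0.07 (SE) and an adjusted p of 0.615. Those 2 markers without overlap compare with 15.7% of all genes in either direction. Nes, Lcn2 and Steap4 had log2 fold changes of -0.08, 0.02 and 0.06.

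In GV16 vs. MOG, 0 of 8 markers were called by edgeR, with 3 at an unadjusted p under 0.05, beside 0.164% of all genes. DESeq2 called 0 on all 12 libraries and 1, Gfap, on the 6 of the pair, and limma-voom called 0. Gfap lay below MOG in every GV16 library, with a log2 fold change of -0.41 ± 0.17 (SE) and an adjusted p of 0.905 that ran from 0.0144 to 0.912 over the alternative fits. Cd44 also lay below MOG in every GV16 library, and its log2 fold change of -0.57 ± 0.13 (SE) had an adjusted p of 0.138. S1pr3 measured 28.5, 18.8 and 28.4 CPM in GV16, again below every MOG library, with a log2 fold change of -0.36 ± 0.12 (SE) and an adjusted p of 0.597. These 3 genes without overlap compare with 12.6% of all genes in either direction. The difference for Serpina3n was -0.50 with a 95% interval from -1.03 to 0.04. Vim, Nes, Lcn2 and Steap4 had log2 fold changes of 0.02, -0.37, -0.11 and -0.65.

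GV16 replicate 2 was the lowest library of its group for 8 of 8 markers, while it was the lowest for 32.3% of all genes tested. Its total count was also the lowest of the 12, and its Steap4 level rested on 2 counts. Without it, the log2 fold change in GV16 vs. MOG was -0.30 for Gfap, -0.28 for Serpina3n, -0.48 for Cd44, -0.19 for S1pr3 and -0.19 for Steap4, and 0 markers were called. The part of GV16 replicate 2 in the lower GV16 means of other genes was not tested. MOG replicate 2 and GV16 replicate 3 were each the highest of their group for 6 of 8 markers, beside 33.4% and 31.3% of all genes. SHAM replicate 2, part of every comparison with SHAM, had the lowest median correlation of log2 CPM with the other libraries, at 0.9852. That of GV16 replicate 2 was 0.9917.

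The comparison of GB20 with GV16 asked whether the acupoint mattered. Here 0 of 8 markers were called by edgeR, with 1, Cd44, at an unadjusted p under 0.05, and 0 by DESeq2 and limma-voom, beside 0.00546% of all genes called. The Cd44 level in GB20 minus that in GV16 was 0.44 on the log2 scale (SE 0.14, adjusted p 1). Cd44 did not overlap between these groups, although GV16 replicate 3 and GB20 replicate 3 both rounded to 10.6 CPM. Vim did not overlap either, by a margin as narrow, so that 2 of 8 did not, beside 8.34% of all genes. Gfap had a log2 fold change of 0.31 with a 95% interval from -0.05 to 0.67, and Serpina3n one of 0.10 with an interval from -0.44 to 0.64. Differences of that size between the acupoints were therefore not excluded.

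The wider reactive glial program was read from 3 gene lists known from studies of reactive astrocytes. In MOG vs. SHAM, 0.568% of all genes tested were called higher, and the median log2 fold change over all genes was -0.002. Of the pan-reactive list, which holds 7 of the 8 markers, 12 of 13 genes were tested, and 5 were called higher in MOG vs. SHAM and 0 lower, with a median log2 fold change of 0.57. Besides Gfap, Serpina3n and Cd44 these were Osmr, the receptor subunit for oncostatin M, whose SHAM level of 6.93 ± 0.454 CPM compared with 17.8 ± 2.26 CPM in MOG (SD, n = 3), and Cp, the iron-oxidizing protein ceruloplasmin. Osmr rose by 1.36 on the log2 scale (SE 0.14, adjusted p 5.35e-06) and Cp by 0.31 (SE 0.07, adjusted p 0.0194). Of 12 tested genes of the A1-type list, 1 was called higher in MOG vs. SHAM, the complement inhibitor Serping1, at a log2 fold change of 0.76, and the median was 0.36. Of 10 tested genes of the A2-type list, 1 was called higher, Stat3, at 0.71 ± 0.10 (SE; adjusted p 0.000224), and the median was 0.16. Called lower were 0 genes of these lists in that comparison.

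Of all genes tested, 0.24% were called in GB20 vs. MOG and 0.164% in GV16 vs. MOG, comparisons that share the 3 MOG libraries. Osmr was the gene of the pan-reactive list that passed the test in the comparisons of needled with MOG retinas. It averaged 11.2 ± 0.505 CPM in GB20 and 11.2 ± 2.38 CPM in GV16 (SD, n = 3), between SHAM and MOG. It fell by a log2 fold change of 0.67 in GB20 vs. MOG (adjusted p 0.0302) and by 0.66 in GV16 vs. MOG (adjusted p 0.0472). The first call did not hold with MOG replicate 2, MOG replicate 3 or any GB20 library left out, and the log2 fold change ran from -0.76 to -0.59. The second did not hold in 8 of 12 such fits (those lacking SHAM replicate 1, MOG replicate 2 or 3, any GB20 library, or GV16 replicate 1 or 2), with log2 fold changes from -0.84 to -0.54. From the A1-type list, Fkbp5, a co-chaperone of the glucocorticoid receptor, rose by a log2 fold change of 0.66 in GV16 vs. MOG (adjusted p 0.00395), and 0 genes were called in GB20 vs. MOG by edgeR, DESeq2 or limma-voom. From the A2-type list 0 were called by these tools in either comparison.

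**Figure D4:**
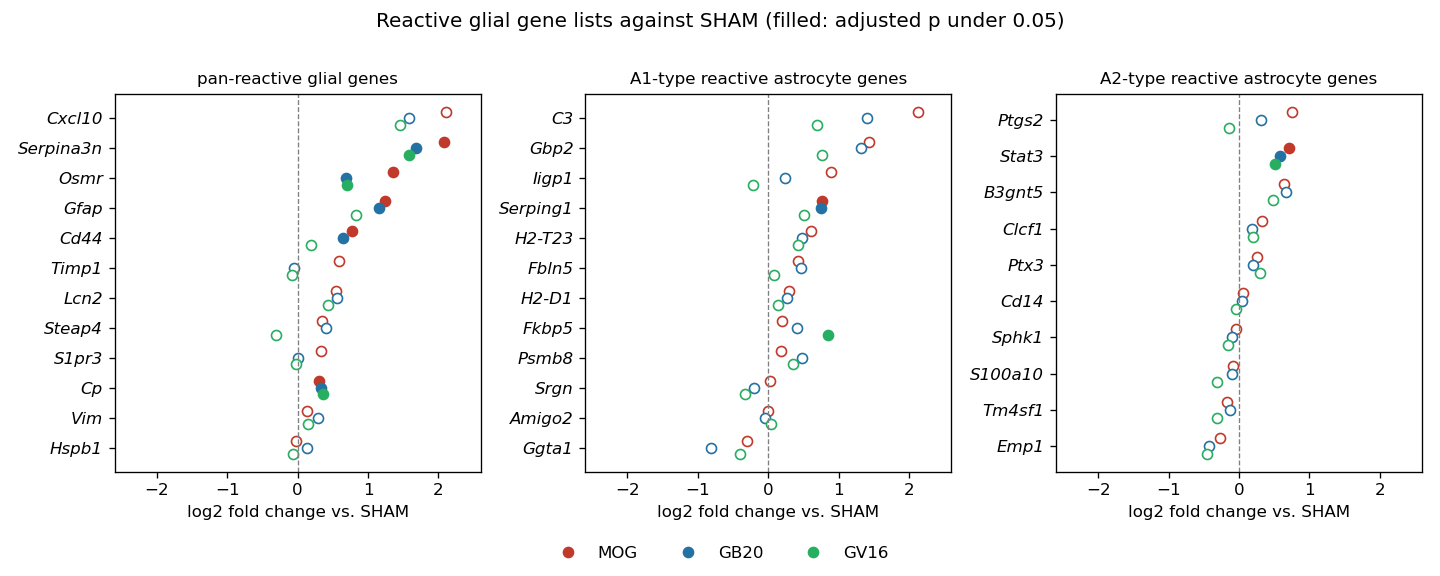
Log2 fold change vs. SHAM (horizontal axis) of the tested genes of the pan-reactive, A1-type and A2-type lists, ordered by MOG vs. SHAM, with red for MOG, blue for GB20 and green for GV16, and filled points for an adjusted p under 0.05. Osmr is filled in all 3 groups, at 1.36, 0.69 and 0.70, and Serpina3n at 2.08, 1.68 and 1.58.

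Partners of the markers were grouped by role. Of 14 genes of intermediate filaments and their linkers, Gfap was called higher in MOG vs. SHAM, where 245 of all 18299 genes tested were called in either direction. Another 5 of the 14 were called lower, all of them filament genes of neurons. These were Prph at a log2 fold change of -1.24, Nefm at -1.03, Nefl at -0.94, Nefh at -0.88 and Ina at -0.51. Nefl and Nefm share exon bases in the annotation (32.8% and 19.2% of their exon length), so their reads may not be told apart. Of 14 tested genes of gp130 and STAT3 signals, 3 were called higher, Bcl3, a nuclear regulator of NF-kB, at 1.71 ± 0.39 (SE; adjusted p 0.0263), Osmr and Stat3. Among the 3 genes listed with Lcn2, the protease gene Mmp9 was called lower at -0.54 (adjusted p 0.04) and the receptors Slc22a17 and Lrp2 were not called. In the hyaluronan, sphingosine-1-phosphate and Steap lists, 0 of 6, 0 of 11 and 0 of 4 tested genes were called in MOG vs. SHAM by edgeR, DESeq2 or limma-voom, with 1, 3 and 0 at an unadjusted p under 0.05.

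Several of these list calls depended on single libraries in MOG vs. SHAM, while Osmr, Stat3, Nefl, Nefh and Prph were called in all 12 fits that left out 1 library. Leaving out SHAM replicate 1 or any MOG library ended the call of Cp, whose log2 fold change ran from 0.30 to 0.33. For Serping1 it was SHAM replicate 1 or 3 and MOG replicate 2 or 3, with a range from 0.64 to 0.89. For Bcl3 it was SHAM replicate 3 and MOG replicate 2 or 3, from 1.39 to 2.03. For Nefm it was SHAM replicate 1 or 2 and MOG replicate 2 or 3 (-1.17 to -0.94), for Ina MOG replicate 2 or 3 (-0.57 to -0.47), and for Mmp9 SHAM replicate 1 or 2, any MOG library and GB20 replicate 3 (-0.57 to -0.51).

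Markers of cell types that can carry or accompany gliosis moved as follows. Over all genes tested, 0.568% were called higher in MOG vs. SHAM, 0.24% were called in GB20 vs. MOG and 0.164% in GV16 vs. MOG. Of 14 Müller glia markers, the water channel gene Aqp4 and Crym were called higher in MOG vs. SHAM, at log2 fold changes of 0.46 and 0.60. Crym encodes a thyroid hormone-binding crystallin. The median of the list was 0.02, with 8 of 14 above 0 and 6 at an unadjusted p under 0.05. Its sum ran from 4858 to 5421 CPM in MOG and from 5052 to 5433 CPM in SHAM, with overlap. Aqp4 and Crym were called lower in GB20 vs. MOG, at -0.35 and -0.50, and in GV16 vs. MOG, at -0.34 and -0.73. These falls share the 3 MOG libraries that also enter MOG vs. SHAM, so they are not independent of each other or of the rise. The Aqp4 calls in those 2 comparisons were lost in 6 and 10 of the 12 fits that left out 1 library, the libraries of MOG and of the needled group among them, while the Crym calls held in all. Of 7 tested astrocyte markers, 0 were called in MOG vs. SHAM by edgeR, DESeq2 or limma-voom, with 3 at an unadjusted p under 0.05. Of the 7, 5 had a log2 fold change above 0, and the median was 0.10. The sum of the astrocyte list ran from 411.3 to 467.7 CPM in MOG and from 449.3 to 510.6 CPM in SHAM, with overlap.

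Of 12 microglia and macrophage markers, 3 were called higher in MOG vs. SHAM, beside 0.568% of all genes tested. They were Ctss, a lysosomal protease, at 0.98, C1qa, a complement subunit, at 0.99 and Csf1r, the receptor for colony-stimulating factor 1, at 0.59. Ctss held without any single library, Csf1r did not once SHAM replicate 3, MOG replicate 1 or MOG replicate 3 was left out (0.50 to 0.67), and C1qa did not in 9 of 12 fits, held only without SHAM replicate 2, GB20 replicate 1 or GB20 replicate 3 (0.71 to 1.25). Exons of Csf1r share 15.1% of their bases with Hmgxb3. The sum of the list ran from 77.0 to 84.5 CPM in MOG and from 50.0 to 59.9 CPM in SHAM, without overlap. Of 12 leukocyte markers only Lcp1 and Ptprc passed the filter on low counts, and 0 were called (1 at an unadjusted p under 0.05; 0 by DESeq2 and limma-voom). The leukocyte sum ran from 3.08 to 3.96 CPM in MOG and from 2.24 to 3.18 CPM in SHAM, and the 10 markers that did not pass the filter had between 1 and 12 counts in their highest library. Of these, the T cell markers Cd8a and Cd4 held 61 and 60 counts over the 12 libraries, while Ly6c2, S100a9, Cd3d, S100a8, Cd3e, Ccr2 and Elane held 11 or fewer. Of 5 tested oligodendrocyte markers, Cnp was called higher at 0.50 in MOG vs. SHAM, except with MOG replicate 3 left out (0.45 to 0.55 over such fits), and lower in GB20 vs. MOG at -0.58, except with MOG replicate 3 or GB20 replicate 1 left out (-0.62 to -0.53), and in GV16 vs. MOG at -0.70. All 3 Cnp comparisons share the same MOG libraries. The sum of this list, of optic nerve oligodendrocyte markers, was 72.5, 102.5 and 71.5 CPM in MOG replicates 1, 2 and 3. In SHAM it ran from 63.6 to 67.4 CPM. Of the ganglion cell markers, Isl2, Nefm, Pou4f1, Nefl and Sncg had the largest falls in MOG vs. SHAM, from -1.14 to -0.93. Endothelial and mural, pigment epithelium, lens, blood and rod markers had 0 calls in that comparison by edgeR, with 1, 3, 0, 0 and 1 at an unadjusted p under 0.05, and of the pigment epithelium markers DESeq2 called 1 on all 12 libraries and 3 on the 6 of the pair. The part of these cell types in the levels of Gfap, Serpina3n and Cd44 was not tested.

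The genes whose levels ran most like those of the called markers were named by Pearson's r of log2 CPM over the 12 libraries, which share their groups, so that r describes group differences together with differences between libraries. For Gfap these were S100a6 (0.972), Serpina3n (0.965), Lad1 (0.946), C4b (0.938) and Nlrc5 (0.934). For Serpina3n they were Lad1 (0.968), Gfap (0.965), C4b (0.963), Tnnt2 (0.960) and Stat3 (0.944). For Cd44 they were Fgf2 (0.906), Lgals3bp (0.897), Ptgfr (0.897), Eif2ak2 (0.896) and Myo15b (0.892). C4b has a near-identical copy, C4a, and its counts are uncertain. Gfap and Serpina3n also moved together within groups, with an r of 0.814 between their deviations from the group means. For Gfap and Cd44 that r was 0.659, and for Lcn2 and Cd44 it was -0.062. Over all pairs of markers it ran from -0.628 (Nes and Lcn2) to 0.814, so high values were not particular to Gfap and Serpina3n. Steap4, with few counts, had 0.781 with Serpina3n and 0.758 with S1pr3. GV16 replicate 2, the lowest of its group for 8 of 8 markers, enters each of these values. These values carry no test.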

How the data were processed

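Retinal polyadenylated RNA of 12 libraries had been sequenced. The authors aligned reads to mm10 with HISAT2 2.0.5 (submitters' processing notes), counted them per gene with FeatureCounts and deposited whole-number counts without normalization. They also deposited FPKM values, computed from gene length and count. Annotation release and strand setting are not stated there. Groups came from the sample labels. Names, coordinates and exon lengths came from GENCODE vM21 (GRCm38), start regions from RefSeq.

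The test used edgeR 4.0.16 in R 4.3.3 (expression filter, TMM, robust quasi-likelihood, 12 libraries, 1 mean per group, 8 residual degrees of freedom, two-sided), with Benjamini-Hochberg adjustment over 18299 genes and a threshold of 0.05. P-values measure the spread between libraries, which may be partly technical. On counts simulated for MOG vs. SHAM over 18026 genes, 171 of 200 genes altered by 1 on the log2 scale were recovered, with 7 false calls. DESeq2 1.42.0 and limma 3.58.1 were alternatives, with other scalings, no filter, exon length offsets, a replicate block, log2(FPKM + 1) and log2(FPKM + 0.1), and each library left out. Figures used Python 3.11.15 and matplotlib 3.10.9.

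The markers and gene lists were chosen with earlier results of these data known. Named were the 8 markers, list genes called in a comparison (at most 10 a list), the 5 genes most correlated with each marker called in MOG vs. SHAM, and markers of other cell types called beside a marker (at most 5 a list). Relatives of Serpina3n, receptors of Lcn2 and leukocyte markers with few counts were named after their values were seen.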

Additional observations from a re-analysis of the deposited data

How the results depend on the processing

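In MOG vs. SHAM, Gfap, Serpina3n and Cd44 were called in all 11 alternative fits and in all 12 fits that left out 1 library. In GB20 vs. MOG and GB20 vs. GV16, 0 markers were called in any of them. In GV16 vs. MOG, 2 markers (Gfap and Cd44) were called with no filter on low counts and 1 (Gfap) with DESeq2 on the 6 libraries, instead of 0. In GB20 vs. SHAM, instead of 3, 4 were called (Vim added) with no filter, exon length offsets and DESeq2 on all 12 libraries, 2 with edgeR on the 6 libraries (Cd44 lost), and 1 (Gfap) with limma on log2(FPKM + 1) and on log2(FPKM + 0.1), and leaving out 1 library gave 0 to 3. In GV16 vs. SHAM, instead of 1, 2 (Serpina3n and Gfap) were called with no filter, edgeR on the 6 libraries, DESeq2 on all 12 and DESeq2 on the 6, 0 with limma-voom, log2(FPKM + 1) and the replicate block with or without exon length offsets, and leaving out 1 library gave 0 to 2. The cause of these shifts was not tested. The exon length offsets take up a trend of log2 fold change with exon length. Over 14372 genes, Spearman's r was 0.259 in MOG vs. SHAM, -0.295 in GB20 vs. MOG and -0.101 in GV16 vs. MOG. It was -0.287 in GB20 vs. GV16, -0.002 in GB20 vs. SHAM and 0.205 in GV16 vs. SHAM. What set this trend was not tested.

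With the replicate block, Gfap and Serpina3n in GB20 vs. SHAM were not called (log2 fold changes 1.14 and 1.69) and Vim was (0.29), which left a count of 2. In GV16 vs. SHAM the block ended the call of Serpina3n (1.60), and it changed no other call of a marker. Libraries of the same number had correlations of their deviations from -0.117 to 0.432 (median 0.055), with 8 of 18 pairs over 0.1, beside 4 of 36 pairs of unlike number (median -0.04). Since not every pair was over 0.1 and no label says what a number marks, the numbers were not taken as pairing. As a hint from the data, 10 of 12 libraries had a higher mean correlation with the libraries of their own number than with those of either other number.

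Signs turned for small differences that did not pass the test. Lcn2 in GB20 vs. MOG was -0.0085 with exon length offsets. Without 1 library, log2 fold changes ran from -0.082 to 0.39 for Nes in MOG vs. SHAM. In GB20 vs. MOG they ran from -0.27 to 0.071 for Gfap, -0.25 to 0.22 for Nes, -0.19 to 0.35 for Lcn2 and -0.13 to 0.28 for Steap4, and in GV16 vs. MOG from -0.012 to 0.064 for Vim and -0.32 to 0.23 for Lcn2. In GB20 vs. GV16 they ran from -0.12 to 0.37 for Serpina3n and -0.14 to 0.13 for S1pr3. Against SHAM they ran from -0.053 to 0.032 for S1pr3 in GB20, and from -0.12 to 0.15 for S1pr3 and -1.28 to 0.16 for Steap4 in GV16.

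Over all genes, the alternatives that kept every library called from 106 to 539 genes in MOG vs. SHAM (245 in the test reported), 14 to 140 in GB20 vs. MOG (44), 5 to 73 in GV16 vs. MOG (30), 0 to 8 in GB20 vs. GV16 (1), 11 to 282 in GB20 vs. SHAM (63) and 36 to 395 in GV16 vs. SHAM (120), the highest each time with no filter. Leaving out 1 library gave from 91 to 427, 13 to 83, 10 to 38, 0 to 4, 14 to 116 and 23 to 231, in the same order. Few counts limit Steap4 and Lcn2.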
